A study of Mus musculus with 15 samples.

Results

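The genes described here encode members of the BCL2 family, which controls the mitochondrial route of apoptosis, and the death receptor Fas. They were named by symbol: the survival genes Bcl2, Bcl2l1 and Mcl1, the BH3-only genes Bcl2l11, Bbc3 and Pmaip1, the effector genes Bax and Bak1, the linker gene Bid, and Fas. Each was read from the probe set with exactly 1 gene symbol, or the one with the highest mean. Of the 10 genes, 9 had such a probe set, 1 each, among the 19938 genes tested, and the expression of Bax was not analysed here. In this pathway the survival proteins hold BAX and BAK inactive, BH3-only proteins neutralise the survival proteins or activate the effectors, and BAX or BAK then permeabilise the outer mitochondrial membrane. Fas acts from the cell surface through caspase-8, which cleaves BID and so links the 2 routes. Germinal centre B cells are prone to apoptosis: BCL6 keeps Bcl2 low in them, they depend on MCL1, and Fas is a surface marker of the germinal centre state.

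Gene expression was measured on microarrays, 1 sample per array, in germinal centre B cells sorted from spleens 10 days after immunization. All 4 groups came from SwHEL donor B cells (CD45.1), which carry a knocked-in receptor for hen egg lysozyme, placed in C57BL/6J recipients (CD45.2) that received sheep red blood cells coupled to the lysozyme mutant HEL3x. The samples are labelled female, and all sorted cells were CD45.1+, CD45.2-, IgG1+ and CD38 low. Light zone cells had high CD86 and low CXCR4, dark zone cells the reverse, and each zone was divided into cells of high and low affinity. The groups were Lzhi (light zone, high affinity, 3 arrays), Lzlo (light zone, low affinity, 4 arrays), Dzhi (dark zone, high affinity, 4 arrays) and Dzlo (dark zone, low affinity, 4 arrays). The model is limited to the progeny of 1 engineered receptor, responding in a host with its own B cells. The labels give neither the age of the mice nor whether animals were pooled, and they do not say that arrays of a group came from separate animals, so the p-values reflect only how far these samples scatter, which may be technical.

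The deposited values are log2 values from RMA, and their medians over all probe sets ran from 5.57 to 5.74 among arrays. A difference of 1 is a doubling, and levels of different genes cannot be compared because their probes differ. The arrays carried germinal centre B cell RNA: the mean of 10 measured markers, among them Cd79b, Ms4a1, Pax5, Gcsam and S1pr2, lay between 10.02 and 10.43 on all arrays. The sort marker gene Cd86 was higher in light zone arrays by 1.04 ± 0.11 (SE, limma adjusted p = 0.00255), while Cxcr4 gave -0.69 ± 0.16 and was not called (adjusted p = 0.152). The sample descriptions carry an experiment code, here A to D, whose meaning the labels do not state. The code of experiment B is written differently for light and dark zone arrays, and no Lzhi array carried code D. Lzlo replicate 3, of experiment D, stood apart in markers of other cells. The mean of 12 neutrophil markers was 9.08 there, against 4.90 to 7.75 on the other 14 arrays, and the mean of 10 T cell markers 7.08, against 5.06 to 6.23. Dzhi replicate 4 stood apart from its own code: its deviations from the group means over all genes correlated with those of experiment D arrays at -0.0819 on average and with those of experiment B arrays at 0.264. Dzhi replicate 1, of experiment A, did likewise, at -0.0267 with its own code and 0.193 with experiment B. Where a difference printed for 1 of the 9 genes was above 0.1 in size and moved by over 1.5 times without Lzlo replicate 3 or Dzhi replicate 4, its value without that array is given too. Groups were compared in 1 limma fit over all 19938 genes, the error of a difference is its standard error (SE) or 95% interval in that fit, and a gene was called at a Benjamini-Hochberg adjusted p under 0.05.

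**Figure D1:**
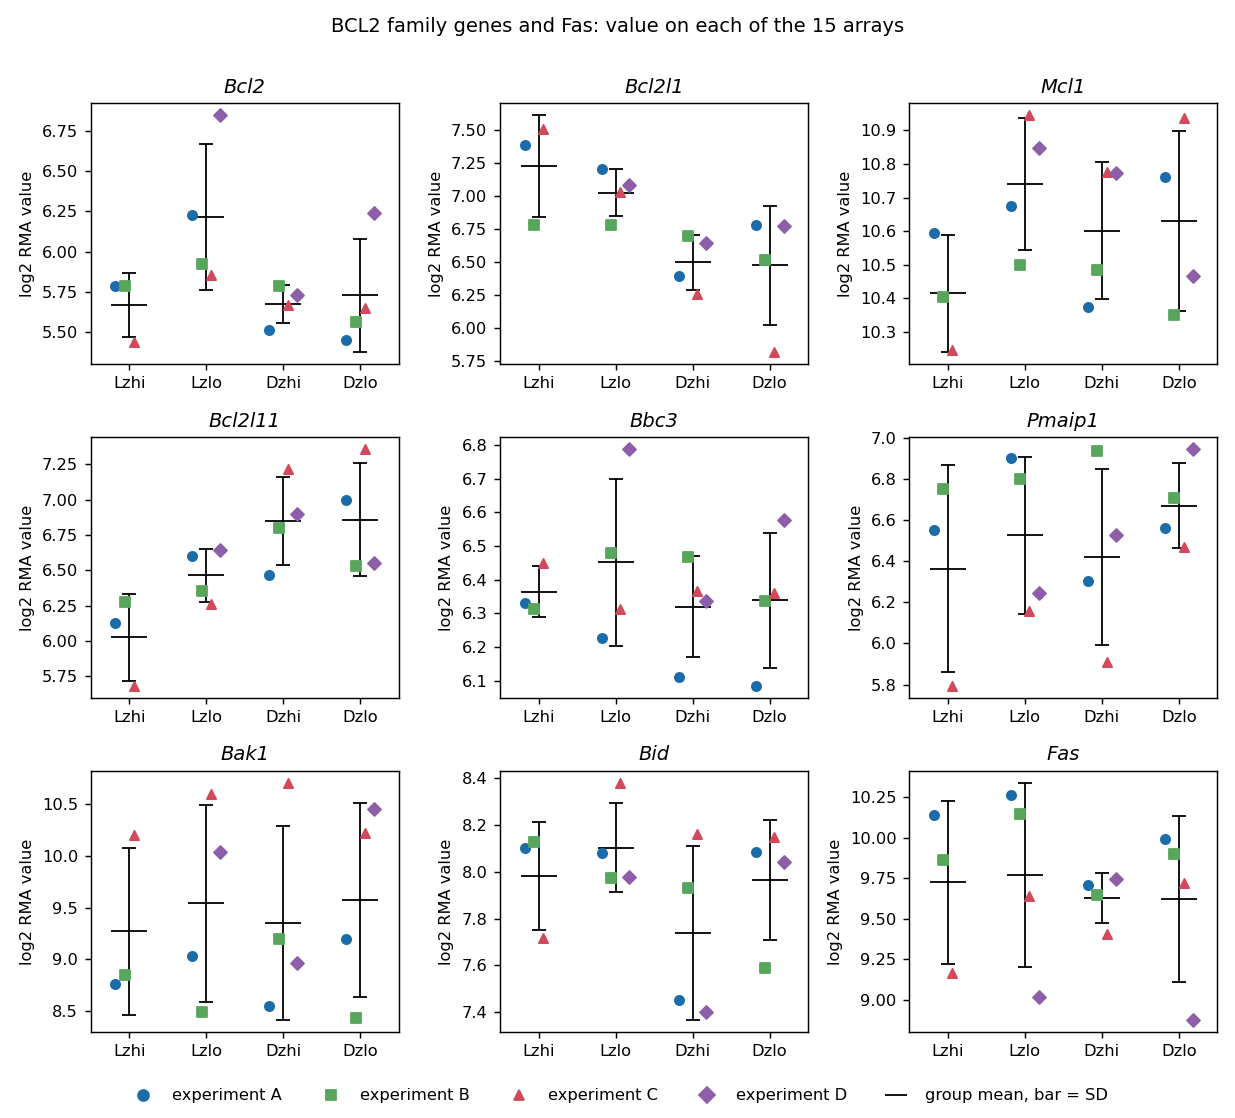
Log2 RMA value (y axis, a scale of its own in each panel) of Fas and 8 BCL2 family genes on each array, by group (x axis). Symbols mark the experiment code, horizontal lines the group mean and bars the SD. Bcl2l1 lies between 6.79 and 7.51 on the light zone arrays and between 5.82 and 6.79 on the dark zone arrays, Bcl2l11 leans the other way, and Bak1 splits by experiment within every group.

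Between the zones, over both affinities, the widest differences among the 9 genes were those of Bcl2l1 and Bcl2l11, in opposite directions. Bcl2l1, which encodes the survival protein BCL-XL, averaged 7.23 ± 0.39 in Lzhi (SD, n = 3) and 7.03 ± 0.18 in Lzlo (SD, n = 4), against 6.50 ± 0.21 in Dzhi and 6.48 ± 0.45 in Dzlo (SD, n = 4 each). Bcl2l11, which encodes the BH3-only killer BIM, averaged 6.03 ± 0.31 in Lzhi and 6.47 ± 0.19 in Lzlo, against 6.85 ± 0.31 in Dzhi and 6.86 ± 0.40 in Dzlo. Neither passed over all genes. Of the 9 genes 0 were called in limma, where 0.155% of all genes were called. With the experiment code in the fit it was again 0 of 9, where 0.451% of all genes were called. At an unadjusted p under 0.05, 2 of the 9 were found, where 4.38% of all genes were.

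The promoters of these 2 genes are shown because they had the lowest p of the 9 genes between zones, although neither was called. Background places Bcl2l1 among NF-kappaB targets and Bcl2l11 among FOXO targets. Each line gives the 250 bases before a start site, from RefSeq on GRCm38.p6, 5′ to 3′ on the strand of the gene. The Bcl2l1 window is chr2:152830718-152830967 (minus strand), the 1 of 3 listed start sites with a match, and its capitals mark a match to the NF-kappaB consensus. The Bcl2l11 window is chr2:128125788-128126037 (plus strand), the 1 of 2 listed start sites with a match, and its capitals mark a match to the FOXO motif GTAAACA.
Bcl2l1: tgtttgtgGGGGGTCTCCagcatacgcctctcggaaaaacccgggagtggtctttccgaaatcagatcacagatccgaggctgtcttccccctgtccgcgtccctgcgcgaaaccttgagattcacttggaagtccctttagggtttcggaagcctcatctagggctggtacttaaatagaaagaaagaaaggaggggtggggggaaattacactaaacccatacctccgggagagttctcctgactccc
Bcl2l11: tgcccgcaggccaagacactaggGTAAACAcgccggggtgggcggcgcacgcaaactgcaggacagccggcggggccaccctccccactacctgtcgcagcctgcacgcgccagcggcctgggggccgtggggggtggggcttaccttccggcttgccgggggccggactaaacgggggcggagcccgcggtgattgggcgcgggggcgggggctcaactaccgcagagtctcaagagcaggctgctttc
Both strands were searched in the 14 windows of 9 of the 10 named genes. These 9 include Bax, and no window of Pmaip1 was searched. The FOXO motif matched 1 window of Bcl2l11 and 1 of Bbc3, and matched 3.17% of the 32851 windows of all genes. The NF-kappaB consensus matched 1 window of Bcl2l1 and 1 of Bbc3, and 7.25% of all windows. The E-box CACGTG matched 1 window each of Bax, Bbc3 and Fas, and 6.02% of all. The p53 response element consensus, searched as 1 of its repeats, matched 1 window of Bax and none of Bbc3, and 7.13% of all. A match says only that the letters are there.

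The array values of Bcl2l1 were 7.39, 6.79 and 7.51 in Lzhi (replicates 1, 2 and 4) and 7.21, 6.79, 7.09 and 7.03 in Lzlo (replicates 1 to 4). They were 6.40, 6.70, 6.26 and 6.64 in Dzhi (replicates 1 to 4) and 6.79, 6.52, 6.78 and 5.82 in Dzlo. The zones met at 1 value: Lzhi replicate 2, Lzlo replicate 2 and Dzlo replicate 1 have the same deposited value, and otherwise every light zone array lay above every dark zone array. The difference, light minus dark zone, was 0.64 ± 0.16, a 1.56-fold difference (95% interval 0.30 to 0.98, limma adjusted p = 0.217). Within an experiment, Bcl2l1 was above its dark zone partner in 7 of 7 pairs, as were 2.06% of all genes, and 0 of the 9 genes were below in all 7, where 1.81% of all genes were. The pair differences among high-affinity cells were 0.99 in experiment A, 0.08 in B and 1.25 in C. Among low-affinity cells they were 0.42 in A, 0.27 in B, 1.21 in C and 0.31 in D. The difference was thus widest in experiment C at both affinities and narrowest in experiment B. The 2 pairs of experiment B join the differently written forms of its code.

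For Bcl2l11 the array values were 6.12, 6.28 and 5.68 in Lzhi and 6.60, 6.36, 6.65 and 6.26 in Lzlo. They were 6.47, 6.80, 7.22 and 6.90 in Dzhi and 7.0, 6.53, 6.55 and 7.36 in Dzlo. The zones overlapped through Lzlo replicates 1 and 3, while the 3 Lzhi arrays lay below all 8 dark zone arrays. How many of all genes did the same was not counted. The difference was -0.61 ± 0.15, 1.52-fold (95% interval -0.93 to -0.28, limma adjusted p = 0.24). It was below 0 in 6 of 7 pairs, and 8.18% of all genes were below 0 in at least 6. Among high-affinity cells the pair differences were -0.34 in A, -0.52 in B and -1.54 in C. Among low-affinity cells they were -0.40 in A, -0.17 in B, -1.10 in C and 0.10 in D, so the pair of experiment D, which holds Lzlo replicate 3, was the exception. Experiment C again held the widest differences. With the low-affinity pair of experiment D left out, the difference was -0.69 ± 0.16 for Bcl2l11 (adjusted p = 0.173) and 0.68 ± 0.17 for Bcl2l1 (adjusted p = 0.216).

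**Figure D2:**
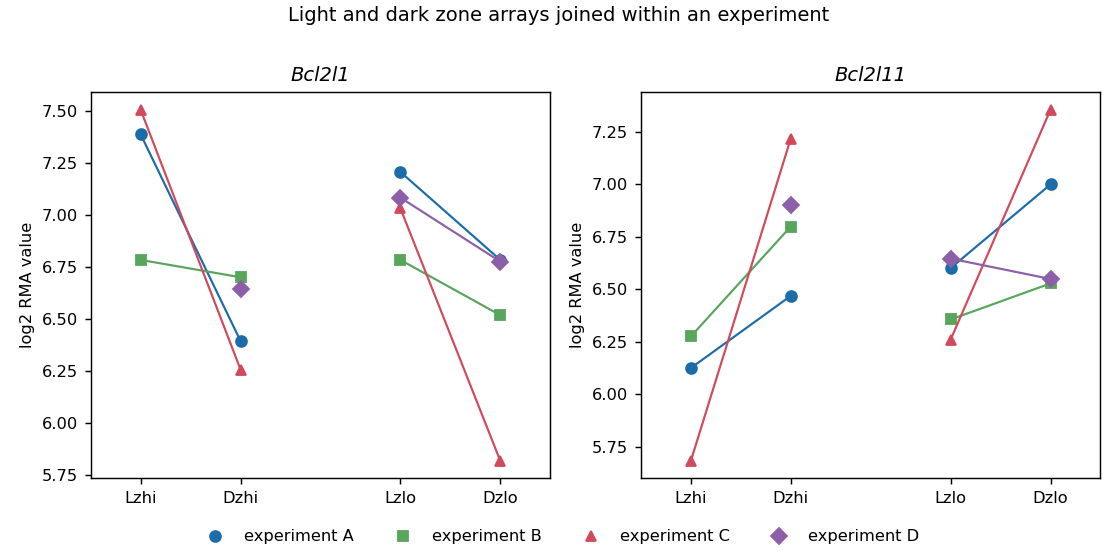
Log2 RMA value (y axis) of Bcl2l1 (left) and Bcl2l11 (right), with light and dark zone arrays of the same experiment code and affinity joined by a line. Lzhi is beside Dzhi and Lzlo beside Dzlo, and Dzhi replicate 4 has no Lzhi partner. All 7 Bcl2l1 lines lie higher at the light zone end, by 0.08 to 1.25, and 6 of 7 Bcl2l11 lines lie lower there.

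Neither of the other survival genes was called between zones. For Bcl2, which encodes the founding survival protein, the light zone arrays ran from 5.44 to 6.85 with a median of 5.85 and the dark zone arrays from 5.45 to 6.24 with a median of 5.66, values close to the array medians. The difference was 0.24 ± 0.16 (95% interval -0.10 to 0.58), or 0.13 ± 0.13 without Lzlo replicate 3. Bcl2 was above 0 in 6 of 7 pairs within an experiment, and with the experiment code in the limma fit its difference was 0.31 ± 0.12 (95% interval 0.05 to 0.57, adjusted p = 0.561). For Mcl1, the survival gene on which germinal centre B cells depend, both zones covered nearly the same span, 10.25 to 10.95 in light zone arrays and 10.35 to 10.94 in dark zone arrays. Its interval, -0.28 to 0.21, bounds any zone difference more closely than those of 7 of the other 8 genes. Only Bbc3, which encodes the p53-induced BH3-only protein PUMA, had a narrower one, -0.14 to 0.30 around 0.08, and 0.02 without Lzlo replicate 3. Pmaip1, which encodes the BH3-only protein NOXA, gave -0.10 ± 0.19, and -0.05 without that array. Bid gave 0.19 ± 0.14, with medians of 8.08 in light zone and 7.99 in dark zone arrays. Fas gave 0.12 ± 0.22, or 0.25 without Lzlo replicate 3, and was above 0 in 5 of 7 pairs. For Bcl2 and Fas the share of all genes above 0 in so many pairs was not counted. The estimate for Bak1, the pore-forming effector, was -0.06 with an interval from -0.98 to 0.87, so a difference of almost 1 in either direction lies within it. Without Lzlo replicate 3 it was -0.14 and without Dzhi replicate 4 -0.12. Of 7 plasma cell markers 6 were below 0 between zones, with a median of -0.24, and their part in these values was not tested. Across the 9 genes 5 estimates were above 0 with a median of 0.08, and over all genes 48% were above 0 with a median of -0.01.

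Within each affinity both genes kept the sign of their difference. In high-affinity cells the light minus dark zone difference was -0.82 ± 0.22 for Bcl2l11 (limma adjusted p = 0.941) and 0.73 ± 0.23 for Bcl2l1 (adjusted p = 0.999). In low-affinity cells it was 0.55 ± 0.22 for Bcl2l1, 0.48 ± 0.21 for Bcl2 and -0.39 ± 0.21 for Bcl2l11 (adjusted p = 1 for each). Of the 9 genes 0 were called at either affinity in limma, where 0.015% of all genes were called at high affinity and 0.01% at low affinity. With the experiment code in the fit these shares were 0.0552% and 0.15%, and the count was again 0 of 9. At an unadjusted p under 0.05 there were 2 of 9 in each case, Bcl2l1 with Bcl2l11 at high affinity and Bcl2l1 with Bcl2 at low affinity, where 2.8% and 3.53% of all genes were found. The low-affinity values moved with single arrays: Bcl2 was 0.27 without Lzlo replicate 3, and without Dzlo replicate 4 Bcl2l1 was 0.33 and Bcl2l11 -0.23. Markers of other cells moved too: at low affinity 11 of 12 neutrophil markers (median 0.62), 8 of 10 T cell markers (median 0.32) and 11 of 12 myeloid markers (median 0.18) were above 0, and at high affinity all 12 neutrophil markers were below 0 (median -0.31). Their part in these values was not tested. Whether the zone difference depended on affinity was tested by the interaction. It was -0.43 ± 0.31 for Bcl2l11, 0.17 ± 0.32 for Bcl2l1 and -0.49 ± 0.31 for Bcl2 (-0.28 without Lzlo replicate 3), and 0 of 9 genes were called, nor any of all genes (0%). At an unadjusted p under 0.05 it found 0 of 9 and 1.33% of all genes. In the interaction all 12 neutrophil markers (median -1.17), all 10 T cell markers (median -0.59) and 11 of 12 myeloid markers (median -0.30) were below 0. Of 8 NK cell markers 5 were below 0, and of 7 plasma cell markers 4 were above 0. Their part in the interaction was not tested.

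High and low affinity were next compared in the light zone. Here 8 of the 9 estimates were below 0, with a median of -0.16 (over all genes 49.9% were above 0, with a median of -0.0003), and 0 of 9 were called, as were 0% of all genes. At an unadjusted p under 0.05, 1 of 9 was found, Bcl2, and 4% of all genes. In Lzhi arrays Bcl2 was 5.78, 5.79 and 5.44 (replicates 1, 2 and 4), against 6.23, 5.92, 6.85 and 5.85 in Lzlo arrays (replicates 1 to 4). The groups did not overlap, but the share of all genes that separate these few arrays was not counted. Lzlo replicate 3 was the highest of all 15 arrays. The difference was -0.54 ± 0.23, 1.46-fold (95% interval -1.03 to -0.05, limma adjusted p = 1), and it was -0.33 ± 0.19 without Lzlo replicate 3. Within experiments A, B and C it was -0.44, -0.14 and -0.41.

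Of 10 germinal centre B cell markers 6 were below 0 in this light zone comparison of affinity (median -0.13). Markers of other cells moved with it. The 10 measured T cell markers were all below 0 in the high minus low affinity difference, with a median of -0.65. Their mean per array was 5.06 to 5.31 in Lzhi and 5.11 to 7.08 in Lzlo. Of 12 neutrophil markers 11 were below 0 (median -1.19), with means per array of 4.90 to 6.37 in Lzhi and 5.07 to 9.08 in Lzlo. The 8 NK cell markers were also all below 0 (median -0.345), with means of 4.22 to 4.68 in Lzhi and 4.16 to 6.27 in Lzlo. Of 12 myeloid markers 10 were below 0 (median -0.13), while all 7 plasma cell markers were above 0 (median 0.11). The part of such RNA in the Bcl2 values was not tested, and in a sorted sample fewer cells of a type and less RNA per cell cannot be told apart. Over Lzlo replicates 1 to 4 Bcl2 was 6.23, 5.92, 6.85 and 5.85. In that order the T cell marker means were 5.11, 5.32, 7.08 and 6.23 and the neutrophil marker means 5.07, 6.03, 9.08 and 6.21. Over Dzlo replicates 1 to 4 Bcl2 was 5.45, 5.56, 6.24 and 5.65. There the T cell marker means were 5.11, 5.24, 5.82 and 5.61 and the neutrophil marker means 5.14, 5.81, 7.75 and 5.21.

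Mcl1 was 10.60, 10.41 and 10.25 in Lzhi arrays and 10.67, 10.50, 10.85 and 10.95 in Lzlo arrays. These overlapped through replicate 1 of Lzhi and replicate 2 of Lzlo, and the difference was -0.33 ± 0.17 (95% interval -0.68 to 0.03). Bcl2l11 gave -0.44 ± 0.22 (95% interval -0.92 to 0.04), or -0.27 without Lzhi replicate 4, its lowest array. The within-experiment differences of Bcl2l11 were -0.48 in A, -0.08 in B and -0.58 in C. Bcl2, Mcl1, Bcl2l11, Pmaip1 and Fas were below 0 in 3 of 3 pairs, so 5 of the 9 genes, where 12% of all genes were. These genes share their arrays, and the 3 pairs use the 3 Lzhi arrays once each. For Fas the estimate was nevertheless -0.04 ± 0.32, since Lzlo replicate 3, which has no partner, held a low Fas value of 9.02. Bcl2l1 gave 0.20 ± 0.23, the 1 estimate above 0, and Pmaip1, Bid, Bbc3 and Bak1 gave -0.16, -0.12, -0.09 and -0.27. Without Lzlo replicate 3 the values were -0.25 for Pmaip1, 0.03 for Bbc3, -0.10 for Bak1 and -0.29 for Fas, so that of Bbc3 changed sign. Other signs also turned on single arrays. Without Lzhi replicate 4, Pmaip1 was 0.125, Fas 0.23 and Bid 0.01, and without Lzlo replicate 4 Bak1 was 0.08.

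In the dark zone, high-affinity and low-affinity cells had close mean values for most of the 9 genes. Bcl2 averaged 5.67 ± 0.12 in Dzhi and 5.73 ± 0.35 in Dzlo, and Mcl1 10.60 ± 0.20 in Dzhi and 10.63 ± 0.27 in Dzlo (SD, n = 4 each). The means were 6.85 in Dzhi and 6.86 in Dzlo for Bcl2l11, 6.50 and 6.48 for Bcl2l1, and 6.32 and 6.34 for Bbc3, in the same order of groups. Fas averaged 9.63 in Dzhi and 9.62 in Dzlo, but its pairs differed. They were -0.28 in experiment A, -0.25 in B, -0.31 in C and 0.87 in D. Without Dzlo replicate 3 the Fas estimate was -0.24. The widest estimates were those of Pmaip1 at -0.25 ± 0.25, Bid at -0.23 ± 0.19 and Bak1 at -0.22 ± 0.59. Without Dzhi replicate 4 Bid was -0.12 and Bak1 -0.09. Signs turned on single arrays here too. Without Dzlo replicate 3 Bak1 was 0.07 and Bcl2 0.12, while without Dzhi replicate 3 Bak1 was -0.67. Pmaip1 and Bid stayed below 0 with each array left out in turn. All 7 plasma cell markers were above 0 in this comparison (median 0.26). Of 10 germinal centre B cell markers 8 were below 0 (median -0.12), and the part of either list was not tested. Of the 9 genes 0 were called, as were 0% of all genes. At an unadjusted p under 0.05 there were 0 of 9, where 1.6% of all genes were found. None of the 9 had the same sign in all 4 pairs of an experiment, where 7.19% of all genes did. Over both zones 8 of the 9 were below 0 in high-affinity cells with a median of -0.18, the widest Bcl2 at -0.30 ± 0.16 (-0.19 without Lzlo replicate 3), and again 0 of 9 were called against 0% of all genes (at an unadjusted p under 0.05, 0 of 9 and 4.3%). There 9 of 10 T cell markers (median -0.36) and 11 of 12 neutrophil markers (median -0.57) were below 0 and all 7 plasma cell markers above 0 (median 0.26). Of 10 germinal centre B cell markers 7 were below 0 (median -0.17). That comparison uses the same arrays as the 2 before it and is no further evidence. The intervals in the dark zone still allow differences of about 0.5 for Bcl2, -0.51 to 0.40, and Bcl2l11, -0.46 to 0.44.

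**Figure D3:**
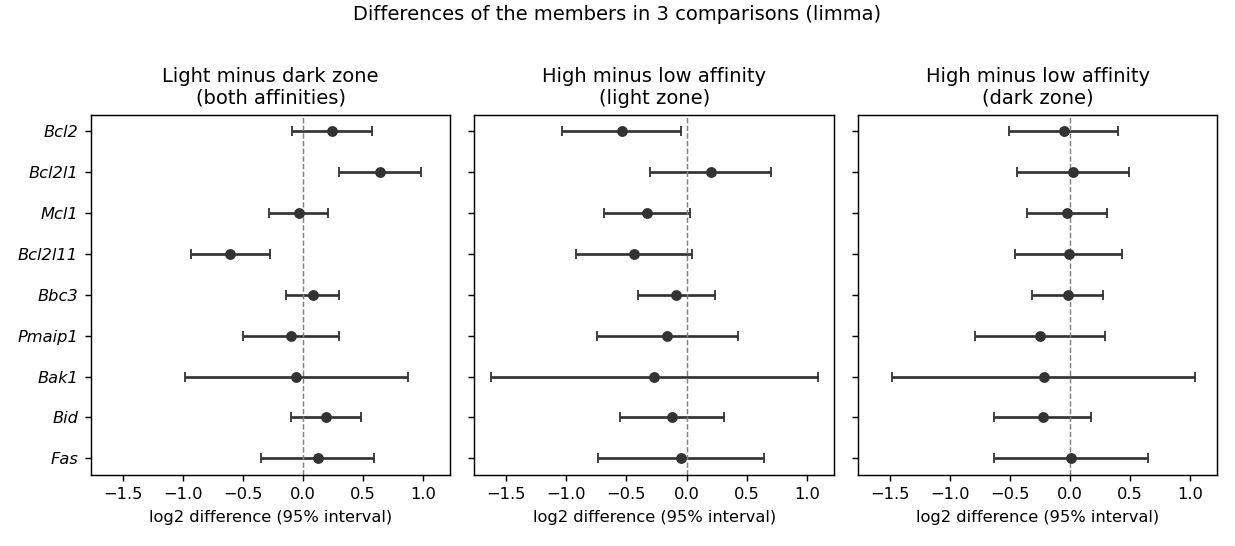
Log2 differences (x axis, points) with 95% intervals (bars) of Fas and 8 BCL2 family genes in 3 limma comparisons over the same arrays. Between zones Bcl2l1 lies at 0.64 and Bcl2l11 at -0.61, with intervals on either side of 0. For affinity in the light zone only the Bcl2 interval leaves out 0, in the dark zone none does, and Bak1 has the widest interval in each panel.

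For some of these genes the experiment code, not the zone or affinity, went with the widest spread. Bak1 ranged from 8.43 to 10.71, and its SD about the group means, 0.92, was larger than that of 98.1% of all genes, whose median was 0.24. Its values fell into 2 sets with a gap of 0.85 between them. The lower held 9 arrays, between 8.43 and 9.19, and the upper 6 arrays, between 10.04 and 10.71. The upper set was made up of the 4 arrays of experiment C, at 10.21 in Lzhi, 10.60 in Lzlo, 10.71 in Dzhi and 10.22 in Dzlo, and the 2 low-affinity arrays of experiment D, at 10.04 in Lzlo and 10.45 in Dzlo. Dzhi replicate 4, the other array of experiment D, was at 8.96 with the arrays of A and B. Every group therefore held arrays of both sets. Averages per experiment were 8.88 in A, 8.74 in B, 10.43 in C and 9.82 in D.

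Fas was spread over experiments in the opposite sense. Averages were 10.03 in A, 9.89 in B, 9.48 in C and 9.21 in D, and the 2 low-affinity arrays of experiment D were the lowest of all, at 9.02 in Lzlo and 8.87 in Dzlo. Dzhi replicate 4, at 9.74, again lay with A and B. The neutrophil marker means of the 2 low-affinity arrays of experiment D, 9.08 in Lzlo and 7.75 in Dzlo, were the highest of all arrays. Dzhi replicate 4 had 6.53, and the experiment C arrays, high in Bak1, had 5.21 to 6.21. The part of such RNA in the Bak1 and Fas values was not tested. On average Pmaip1 was lowest in experiment C, at 5.79 in Lzhi, 6.16 in Lzlo, 5.91 in Dzhi and 6.47 in Dzlo, with an average of 6.08 there and of 6.80 in B.

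A limma F test of the experiment code beside the group means, chosen after these values were seen, called Bak1 (adjusted p = 0.027) and 3.43% of all genes. It did not call Fas (adjusted p = 0.109), Pmaip1 (0.102), Bcl2 (0.158) or Bbc3 (0.205), nor the other 4 genes. Without Dzhi replicate 4 the adjusted p was 0.000494 for Bak1, 0.00107 for Fas, 0.0158 for Bcl2 and 0.057 for Pmaip1, and 19.8% of all genes were called. That array was left out because it did not go with its code, so these values describe the remaining arrays and support no call. Without all arrays of experiment D it was 0.0033 for Bak1, 0.0426 for Pmaip1, 0.0553 for Fas and 0.855 for Bcl2, with 6.9% of all genes called. Of the 9 genes, Bak1 alone passed both with all arrays and without experiment D. Bcl2l11 was far from a call in all 3 fits, with adjusted p of 0.963, 0.948 and 0.927, and so was Bcl2l1, at 0.577, 0.574 and 0.682. With the code in the fit, the zone difference of Bak1 had an interval of -0.49 to 0.48. What the code stands for, and so whether animals, sorting or array handling differed, was not tested.

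**Figure D4:**
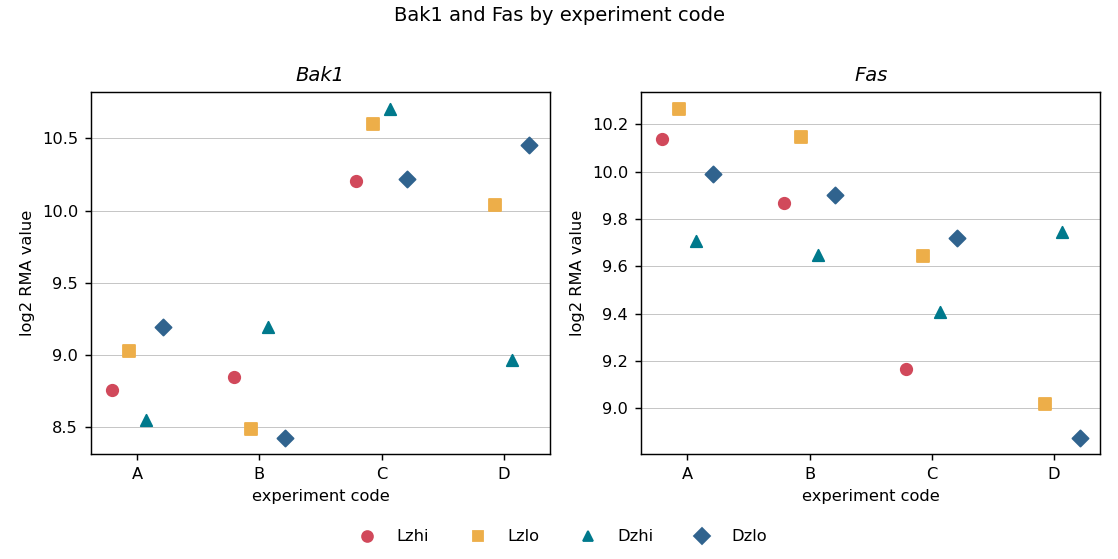
Log2 RMA value (y axis) of Bak1 (left) and Fas (right) on each array, by experiment code (x axis), with symbols for the 4 groups. Bak1 lies at 10.21 or above on all experiment C arrays and at 9.19 or below on all A and B arrays, while Dzhi replicate 4 (8.96 for Bak1, 9.74 for Fas) lies apart from the other D arrays.

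The rest of the apoptosis pathway was read from 4 lists. Between zones 0 genes of any list were called in either direction, where 0.155% of all genes were called. Of 13 measured other BCL2 family genes 4 were above and 9 below 0, with a median of -0.03. The BH3-only gene Bmf had the lowest p among them, at 0.44 ± 0.14 (limma adjusted p = 0.532). Bmf averaged 7.06 in Lzhi and 7.62 in Lzlo, against 6.82 in Dzhi and 6.99 in Dzlo, so its estimate ran opposite to that of Bcl2l11. Of 14 death receptor pathway genes 9 were above and 5 below 0, with a median of 0.06. The widest there were Fcmr, the IgM Fc receptor gene also described as an inhibitor of Fas signalling, at 0.37 ± 0.21, and Faim, a Fas apoptosis inhibitory molecule, at -0.30 ± 0.19. Of 18 caspase, apoptosome and inhibitor of apoptosis genes 10 were above and 8 below 0. Birc3, which encodes the inhibitor of apoptosis protein cIAP2, led them at 0.74 ± 0.17 (adjusted p = 0.149). Its means were 9.25 in Lzhi and 9.16 in Lzlo, against 8.40 in Dzhi and 8.53 in Dzlo. Birc5, which encodes survivin and is expressed in dividing cells, gave -0.35 ± 0.15 (adjusted p = 0.999). Of 15 p53 and stress regulators 6 were above and 9 below 0. The growth regulator Myc gave 0.72 ± 0.21 (adjusted p = 0.422) and Foxo3, a FOXO transcription factor gene, 0.45 ± 0.15 (adjusted p = 0.624).

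For affinity the same 4 lists also had 0 called genes in each zone, as had the whole array (0% of all genes). In the light zone 9 of 13 other BCL2 family genes and 12 of 15 p53 and stress regulators were below 0, with medians of -0.15 and -0.14. Of the death receptor genes 6 were above and 8 below 0 (median -0.06), and of the caspase, apoptosome and inhibitor genes 11 of 18 were above 0 (median 0.05). Bmf was again the lowest by p of its list, at -0.56 ± 0.20 (adjusted p = 1), with 7.06 ± 0.07 in Lzhi (SD, n = 3) and 7.62 ± 0.40 in Lzlo (SD, n = 4). Its 3 Lzhi arrays, 7.01 to 7.14, lay below the 4 Lzlo arrays, 7.24 to 8.14. The share of all genes that separate these groups was not counted, and the Bmf difference without Lzlo replicate 3 is not given here. Casp8, the caspase that Fas activates, gave -0.43 ± 0.21, and Dffb, the nuclease that cuts DNA in apoptosis, gave -0.53 ± 0.23. The estimate for Birc5 was 0.46 ± 0.22, with means of 10.29 in Lzhi and 9.83 in Lzlo. In the dark zone the list medians lay between -0.01 and 0.04. The lowest p there was that of Dedd, which encodes a death effector domain protein, at -0.40 ± 0.16 (adjusted p = 1), with 7.94 in Dzhi and 8.34 in Dzlo.

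**Figure D5:**
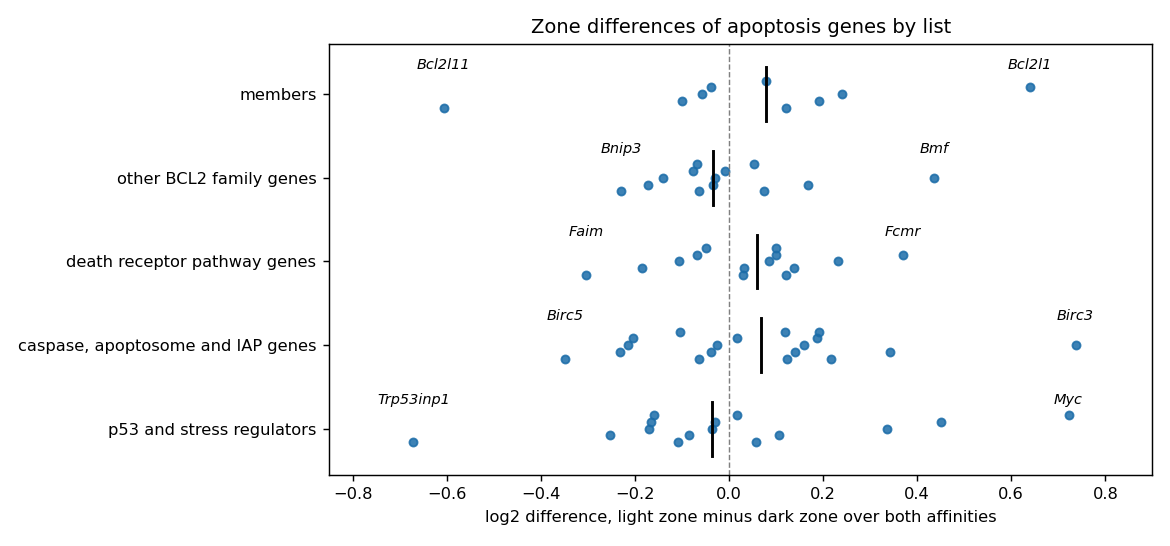
Log2 difference, light zone minus dark zone over both affinities (x axis), of each measured gene of 5 lists (points, spread vertically for sight), with the list median as a black line and the outermost genes named. All list medians lie between -0.04 and 0.08, and Bcl2l1, Bmf, Birc3 and Myc lie at 0.64, 0.44, 0.74 and 0.72.

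The genes whose values over the 15 arrays followed those of a member most closely were taken by Pearson correlation, as a description, since the arrays share groups and experiments. For Bcl2l1 they were Atf6 (0.87), a sensor of stress in the endoplasmic reticulum, Tnfsf9 (0.85), which encodes the costimulatory 4-1BB ligand, and Itprid1 (0.79). For Bcl2l11 they were Abca3 (0.88), Mctp2 (0.87) and Ly96 (0.87). For Bcl2 they were Pitpnm2 (0.93), Gpt (0.92) and Irak3 (0.92). Bak1 and Fas were added after their spread over experiments was seen. For Bak1 the likeness was closest, with Rab1b (0.98), a gene of vesicle transport, Zdhhc4 (0.97) and the glutathione peroxidase gene Gpx1 (0.97), and for Fas the genes were Kat6a, Tbk1 and Zbtb1 (0.95 each).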

How the data were processed

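The authors deposited log2 values of 28853 probe sets on 15 arrays, made with RMA (background correction, quantile normalization and summary of probes), per the submitters' processing notes, which name genome build mm8. The software is not given in the sources used here beyond that name. Differences of dim probe sets are compressed by this method. RNA was amplified before labelling, per the labels' protocols, which adds spread, and the number of arrays limits the precision. The table has no detection calls.

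Probe sets with 1 symbol in the platform annotation (21789) were used and those with several (1621) or none (5443) left out. The probe set with the highest mean stood for a gene. Groups were taken from titles and experiment codes from descriptions. A linear model of 4 group means was fitted to all arrays with limma 3.58.1 under R 4.3.3 (11 residual degrees of freedom), with Benjamini-Hochberg adjustment over 19938 genes in each of 7 comparisons. The steps were tested on simulated data whose noise was independent between arrays. That test does not cover the likeness of arrays that share a code. Deviations from the group means correlated at 0.288 on average between arrays that shared a code across groups (21 pairs, 16 above 0.1). Where codes differed the average was -0.082 (63 pairs, 21 above 0.1), so arrays of a code were more alike. The main fit nevertheless has no block, because the labels' protocols state no test. Fits with the code as a block are given as alternatives. Differences within an experiment are between arrays of the same code, with the differently written forms of code B joined. No 2 arrays were counted as one, the highest correlation between arrays being 0.993. Figures were drawn with matplotlib 3.10.9.

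The genes and lists were chosen with earlier results of these data known. Named genes were all members, per list and comparison at most 3 with the lowest p, and the 3 most correlated genes of a member. Some genes of the lists were not analysed here.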

Additional observations from a re-analysis of the deposited data

How the results depend on the processing

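No member was called in any of the 7 comparisons under any alternative tried, so the count stayed at 0 of 9. The alternatives were another centring or normalization, a filter on dim genes, another rule for probe sets, trended robust variances, array weights (whose fit stopped before its tolerance), the groups compared alone, a threshold of 0.1, experiment D left out in part or whole, and each array left out in turn. With the experiment code as a replicate block the count was also 0, while 90 genes passed between zones, against 31 without it (11 against 3 at high affinity, 30 against 2 at low affinity). The block with the code as written passed 35 genes, that with the title number 83 and the code as a random block 78. Other counts between zones that moved by over 1.5 times were 68 with array weights, 49 with repeated quantile normalization or the 0.1 threshold, 18 without Lzhi replicate 2, 19 without Dzlo replicate 1, and 20 without Lzhi replicate 1 or Lzlo replicate 2. The lowest adjusted p of a member was 0.0908, for Bcl2l1 with the code as written. Bcl2l1 between zones stayed between 0.53 and 0.86 and Bcl2l11 between -0.71 and -0.52. Of 63 gene results 34 changed sign under at least 1 alternative, the largest of them -0.27.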
